A study of Arabidopsis thaliana with 9 samples.

Results

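The pectin lyase-like genes of Arabidopsis thaliana roots are described here in plants grown with enough potassium, with little potassium or with cesium. The members are the genes whose description in the authors' deposited comparison of cesium with control reads pectin lyase-like superfamily protein, in any letter case. This gave 104 genes of the 37547 listed. By the protein family in the RefSeq annotation (TAIR10.1), 64 were polygalacturonase-type enzymes of glycoside hydrolase family 28, 19 were pectate lyases, 19 were pectin methylesterases and 2 belonged to none of these families. The choice used no measured value.

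Pectin is the gel-like, acidic polysaccharide of the plant primary wall and of the middle lamella that glues cells together, and its main chain is homogalacturonan. Pectin methylesterases strip methyl groups from that chain after it has been exported to the wall. Polygalacturonases cut the demethylated chain by hydrolysis and pectate lyases cut it by elimination, and all of these enzymes fold into the same right-handed beta-helix. In roots they are known for loosening walls during growth, for lateral root emergence and for the shedding of root cap cells.

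The series holds 9 RNA-seq libraries from roots of wild-type Col-0, a laboratory accession, in 3 groups of 3 libraries, and its title names abscisic acid perception and thiamine synthesis under cesium. Control plants grew on agarose medium with 0.5 mM KCl, low potassium plants with 0.025 mM KCl, and cesium plants with 0.5 mM KCl and CsCl, whose amount is labelled 0.3 with mL as its unit. All groups shared genotype, tissue and the rest of the medium, which held sucrose, and the labels give no age. The libraries are labelled biological replicates with no word on separate plates or cultures, so the p-values below measure only the spread between these libraries, which may be technical.

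Values are FPKM (fragments scaled to transcript length and library size) as the authors deposited them, so the number of reads is unknown. Among genes at very low values, 1 fragment was worth 0.984 to 1.03 times as much in each of the other 8 libraries as in control 1, so depths were alike. Of 10 root tissue markers, all were above 1 FPKM on average, and 10 of 12 shoot markers outside photosynthesis were not. Libraries are named by group and replicate number. Cesium 3 lay at 37.6 on component 3 of a principal component analysis of all tested genes, against -27.3 and -19.4 for cesium 1 and 2, and counts without it are given below. The file regions of 17 members also hold another gene, so their values are less certain. These include PGX3, QRT1, QRT2, PGLR, PMR6, AT1G10640, AT2G43890, AT4G20040 and AT5G41870.

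About as many members reached 1 FPKM in these roots as stayed below it. Across the 9 libraries, 49 members had a mean of at least 1 FPKM and were tested, 27 were listed at 0 in every library, and 28 lay in between. Of all 37547 genes listed, 19536 were tested, a share near that of the members. The tested members were 29 of 64 polygalacturonase-type genes, 13 of 19 pectate lyases, 5 of 19 pectin methylesterases and both genes outside these families. Of the members listed at 0 throughout, 19 were polygalacturonase-type and 8 were pectin methylesterases, and no pectate lyase was among them. The filter at 1 FPKM fell between AT4G13210 at 1.47 FPKM and AT1G11920 at 0.851 FPKM.

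**Figure D1:**
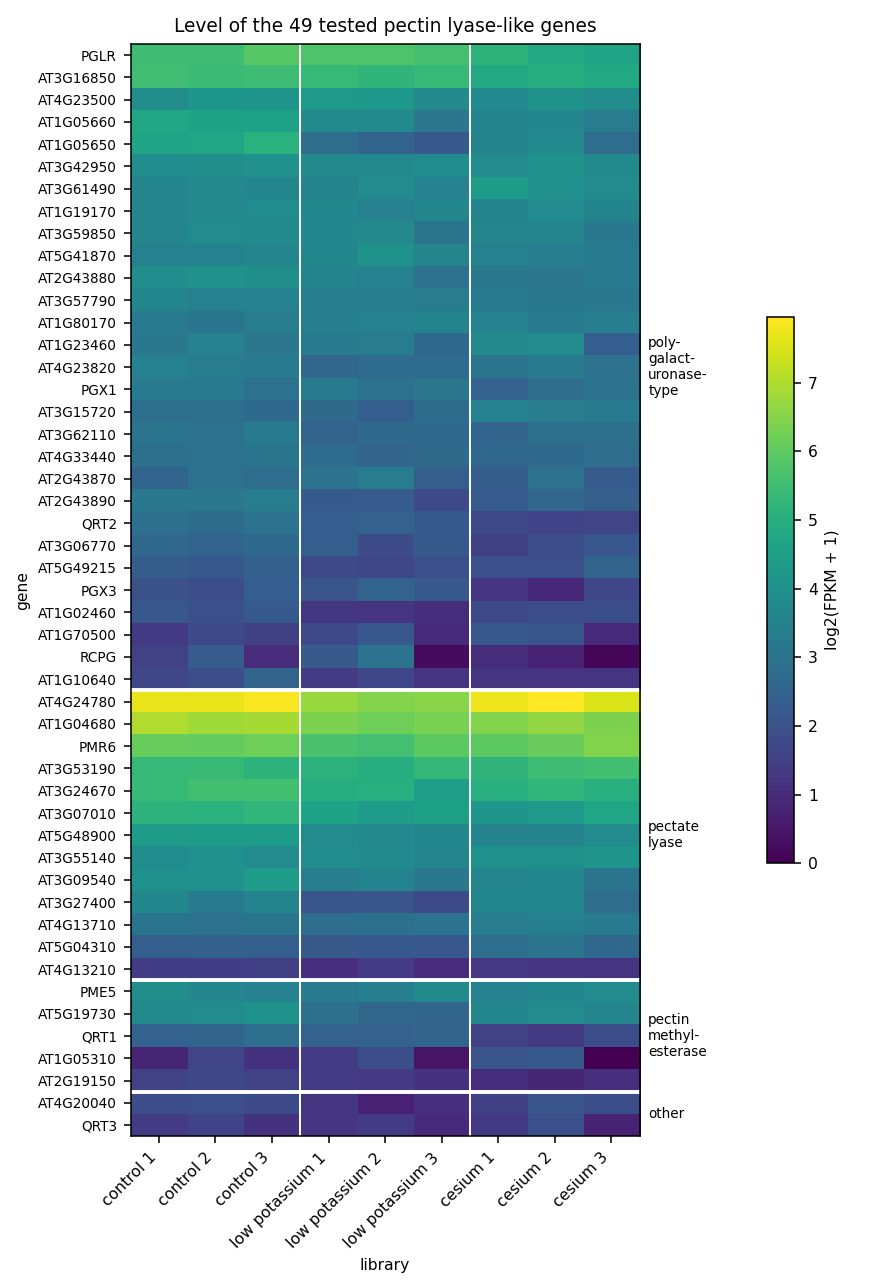
Level of the 49 tested genes, as log2(FPKM + 1) by colour, in each of the 9 libraries (columns), ordered by enzyme family and mean level (rows). The pectate lyase AT4G24780 is the brightest row in every library and dims in the 3 low potassium libraries, where it lay between 89.3 and 106 FPKM.

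A few genes made up much of the family's RNA. The 6 most abundant members held 55% of the summed mean FPKM of all 104. In order these were AT4G24780, AT1G04680 and PMR6 (pectate lyases), PGLR (a polygalacturonase named for its part in lateral root formation), AT3G53190 (pectate lyase) and AT3G16850 (polygalacturonase-type), with means over the 9 libraries of 176, 96.2, 64.8, 43.1, 38.0 and 36.6 FPKM. The means of PGLR, AT3G53190 and AT3G16850 differ by less than their spread over the libraries. The pectate lyase AT3G24670 follows at 34.6 FPKM, and its control mean of 43.8 FPKM is above that of AT3G53190, 37.9 FPKM. PMR6 is known as a susceptibility gene for powdery mildew.

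The summed level of the enzymes was lower in low potassium for each of the main families. Pectate lyases summed to 590, 583 and 618 FPKM in the controls, to 379, 342 and 363 FPKM in low potassium and to 517, 585 and 512 FPKM under cesium. Polygalacturonase-type genes summed to 336, 342 and 369 FPKM in the controls, to 294, 299 and 255 FPKM in low potassium and to 261, 266 and 229 FPKM under cesium. Pectin methylesterases summed to 35.0, 35.0 and 36.2 FPKM, to 23.9, 24.7 and 24.5 FPKM and to 28.7, 31.7 and 28.8 FPKM in the same order. So the low potassium libraries lay below all controls in each family, the cesium libraries lay below all controls for polygalacturonase-type genes and pectin methylesterases, and the pectate lyase sums of cesium and control overlapped. Sums follow the abundant genes: AT4G24780 alone held 36.1% of the pectate lyase sum in the controls and 26.7% in low potassium. In whole roots, fewer cells of a type and less RNA per cell cannot be told apart.

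**Figure D2:**
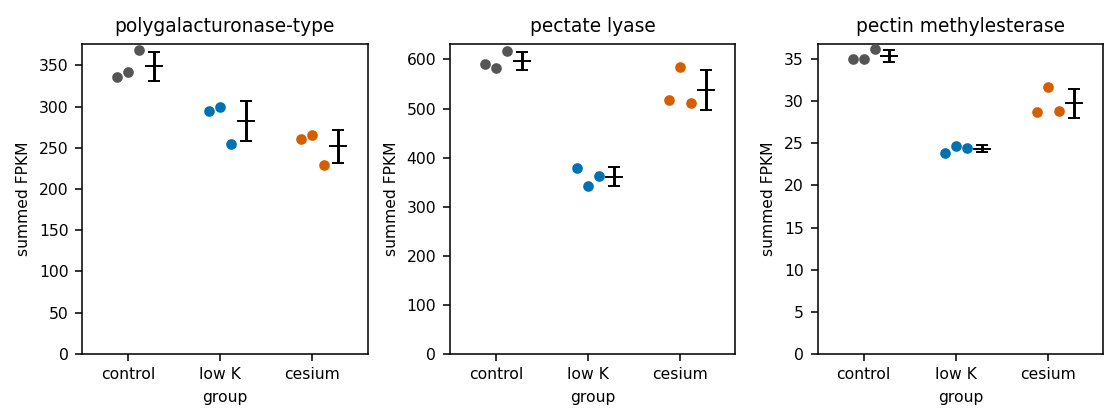
Summed FPKM of the members of each enzyme family by group; points are libraries, and the bar beside them is the mean with its SD (n = 3). Low potassium is lowest for pectate lyases (361 ± 18.7 FPKM), and cesium is lowest for polygalacturonase-type genes (252 ± 20.2 FPKM).

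Low potassium was tested against control over all 19536 genes that passed the filter, with limma on log2(FPKM + 1) and Benjamini-Hochberg adjustment, and a gene was called at an adjusted p under 0.05. In this comparison 37.6% of all genes tested were called, 18.8% in each direction. Among the 49 tested members, 20 were lower in low potassium and none was higher. The authors' deposited table called 20 members in the same comparison, 19 lower and RCPG higher, of which 17 were also called by limma. The 3 called by limma alone were QRT2, AT4G23820 and AT4G33440. The median log2 change was -0.24 over the tested members and 0.002 over all genes tested. The share of members called, 40.8%, lay near the background, while the share called lower was above the 18.8% of all genes called lower. Lower members were 8 of 13 pectate lyases, 10 of 29 polygalacturonase-type genes, 1 of 5 pectin methylesterases and AT4G20040 outside these families. In all 20, the 3 low potassium libraries lay below the 3 controls. The same held for uncalled members such as AT3G57790, and the share over all genes was not computed, so this is no further evidence.

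Cesium was tested against the same 3 control libraries, so the 2 comparisons are not independent of each other. Here 23.5% of all genes tested were called, 10.8% higher and 12.7% lower. Of the tested members, 17 were lower and 3 were higher under cesium. No called member overlapped between the groups, nor did uncalled ones such as AT3G24670, and the share over all genes was not computed. The median log2 change was -0.26 over the tested members and 0.02 over all genes. Lower members were 11 polygalacturonase-type genes, 4 pectate lyases and 2 pectin methylesterases, and higher members were 2 pectate lyases and 1 polygalacturonase-type gene. The authors' deposited table called 20 members under cesium, 16 lower and 4 higher, of which 15 were also called by limma. The 5 called by limma alone were PGX3, QRT1, AT1G10640, AT3G57790 and AT4G13710. Of these, PGX3, QRT1 and AT1G10640, and also AT4G23820, had a lower FPKM bound above 0 in no library. Without control 1, control 3 or cesium 2, left out in turn, 1 member was higher. Without cesium 3 the members called were 23, and without control 2 or control 3 the calls over all genes dropped to 2905 and 3030. Photosynthesis genes differed between the same groups: the summed level of 10 such markers was 406 to 543 FPKM in the controls, 269 to 321 FPKM in low potassium and 987 to 1720 FPKM under cesium, with none at 0, 7 of 10 higher under cesium than in control and 5 of 10 lower in low potassium. Their part in the results on pectin genes was not tested.

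**Figure D3:**
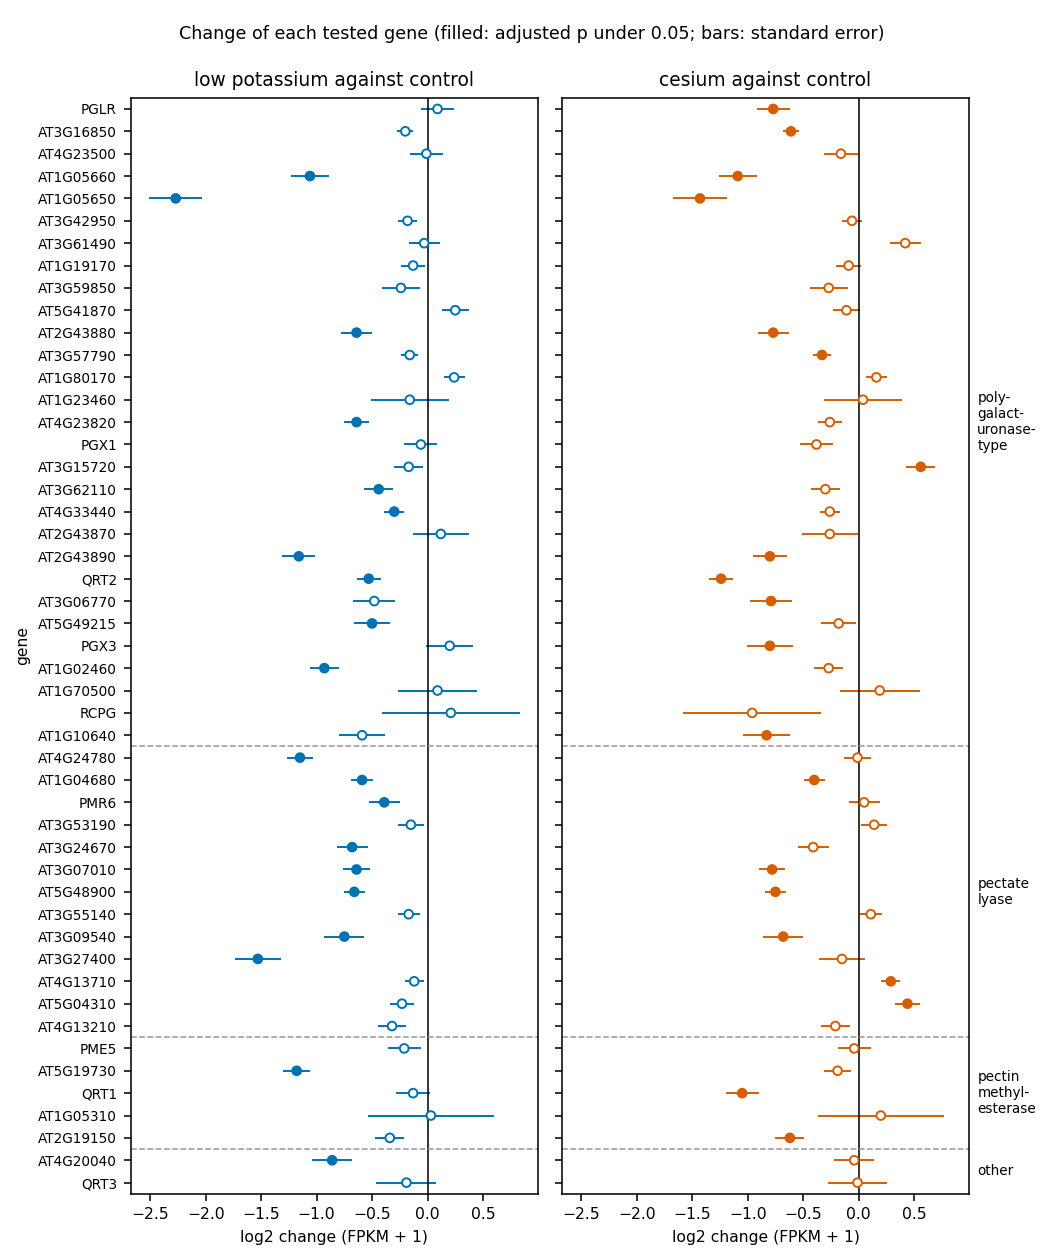
Log2 change of each tested gene against control on the log2(FPKM + 1) scale, with its standard error, in low potassium (left) and cesium (right); filled points have an adjusted p under 0.05 and dashed lines separate the enzyme families. All 20 filled points on the left lie below 0, with AT1G05650 lowest at -2.27, while the right panel has 3 filled points above 0.

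Cesium was also compared directly with low potassium. Of all genes tested, 34.2% were called, 16.7% higher and 17.4% lower under cesium. Among the tested members, 12 were higher and 6 were lower under cesium than in low potassium. By family, 5 of 13 pectate lyases were higher and none was lower, while 5 polygalacturonase-type genes were higher and 5 were lower. The median log2 difference was 0.28 over the tested pectate lyases, -0.03 over the polygalacturonase-type genes and -0.002 over all genes. Members called numbered 13 without cesium 2, of which 8 were higher, 14 and 15 without low potassium 1 and 2, and 19 without low potassium 3.

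Among the polygalacturonase-type genes, the neighbouring pair AT1G05650 and AT1G05660 was lower in both stresses. On the log2(FPKM + 1) scale, AT1G05650 had the largest change against control in each. Its ratio of the cesium mean to the control mean was 0.357, against 0.335 for QRT2 and 0.279 for RCPG, which limma did not call. AT1G05650 and AT1G05660 lie on the minus strand of chromosome 1, at chr1:1690002-1692179 and chr1:1694070-1696191 in the files' TAIR10 coordinates, with 4 exons each. Their coding sequences were 90.9% identical over 1185 aligned bases, and they shared no run of 75 bases, so a read as long as that would separate them. Their promoters and the stretch of coding sequence that holds the catalytic aspartate pair of the family are printed to show how alike the copies are, beside the same stretch of 3 other polygalacturonase-type genes that changed under cesium. In the 54 coding bases, capitals mark the codons of the aspartate pair. The stretches of the first 2 genes lie at chr1:1691029-1691082 and chr1:1695046-1695099, minus strand, and those of QRT2, PGX3 and PGLR are given as spliced coding sequence.
AT1G05650: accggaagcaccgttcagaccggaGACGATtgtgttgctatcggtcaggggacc
AT1G05660: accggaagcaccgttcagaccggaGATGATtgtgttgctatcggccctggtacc
QRT2: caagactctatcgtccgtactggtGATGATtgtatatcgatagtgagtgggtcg
PGX3: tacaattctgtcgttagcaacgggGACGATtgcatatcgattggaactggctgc
PGLR: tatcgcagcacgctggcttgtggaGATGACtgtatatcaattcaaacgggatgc
AT1G05660 shares 49 of the 54 bases with AT1G05650, against 27 for QRT2, 26 for PGX3 and 25 for PGLR. All sequences are from RefSeq, build TAIR10.1.

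AT1G05650 stood at 24.2, 25.0 and 33.1 FPKM in the controls, at 6.24, 4.77 and 3.78 FPKM in low potassium and at 10.7, 12.6 and 6.19 FPKM under cesium. All stressed libraries lay below all controls, and the highest low potassium library overlapped the lowest cesium library. The log2 change was -2.27 (SE 0.24, adjusted p = 0.00013) in low potassium and -1.43 (SE 0.24, adjusted p = 0.00253) under cesium, and the difference between the stresses, 0.84 (adjusted p = 0.0219), lost its call without low potassium 2 or 3 or cesium 1 or 2, left out in turn (adjusted p 0.0613 to 0.0769). AT1G05660 stood at 26.1, 23.3 and 22.7 FPKM in the controls, at 12.9, 13 and 7.85 FPKM in low potassium and at 11.1, 11.8 and 9.37 FPKM under cesium. Its log2 changes were -1.06 (adjusted p = 0.00136) and -1.09 (adjusted p = 0.00177). The 2 stresses overlapped for AT1G05660 and differed by -0.03 (SE 0.17, adjusted p = 0.894), and the difference between the 2 genes was not tested.

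The 250 bases before the start of each gene were searched on both strands for 5 motifs. These were the core of abscisic acid response elements (ACGTG), the G-box, which contains that core (CACGTG), an auxin response element (TGTCTC), P1BS, known from phosphate responses (GNATATNC), and the core of the W-box (TTGAC). Capitals mark matches. The promoters of the tandem pair lie at chr1:1692180-1692429 and chr1:1696192-1696441 on the minus strand, and that of AT3G27400, the pectate lyase with the largest change in low potassium, at chr3:10139950-10140199 on the plus strand.
AT1G05650 promoter: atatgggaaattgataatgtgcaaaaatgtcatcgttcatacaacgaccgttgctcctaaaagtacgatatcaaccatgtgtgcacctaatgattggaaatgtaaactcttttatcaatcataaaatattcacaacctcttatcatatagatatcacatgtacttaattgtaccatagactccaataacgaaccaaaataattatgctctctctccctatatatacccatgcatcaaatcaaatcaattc
AT1G05660 promoter: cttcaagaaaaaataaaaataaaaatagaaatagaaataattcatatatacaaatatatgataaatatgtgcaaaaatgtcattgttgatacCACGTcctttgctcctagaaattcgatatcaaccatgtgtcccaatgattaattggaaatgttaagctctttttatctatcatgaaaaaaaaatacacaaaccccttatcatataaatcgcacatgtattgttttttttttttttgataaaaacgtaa
AT3G27400 promoter: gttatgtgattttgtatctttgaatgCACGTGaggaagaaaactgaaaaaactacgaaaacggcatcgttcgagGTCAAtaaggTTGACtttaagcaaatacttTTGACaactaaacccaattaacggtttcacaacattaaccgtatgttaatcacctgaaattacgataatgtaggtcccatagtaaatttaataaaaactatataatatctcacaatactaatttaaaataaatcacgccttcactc
The AT1G05650 window holds no match to these motifs and the AT1G05660 window holds 1 match to ACGTG. The AT3G27400 window holds a G-box, which gives 2 matches to ACGTG, and 3 matches to TTGAC. Over the 27437 promoters searched, 22.9% hold ACGTG, 6.49% CACGTG, 10.9% TGTCTC, 5.46% GNATATNC and 44.9% TTGAC. Of the 49 tested members, 8, 3, 7, 1 and 21 hold them in the same order.

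Of the 29 tested polygalacturonase-type genes, 12 were called against control in neither stress, and the called genes beyond the tandem pair differed in the stress in which they were called. AT2G43890, which sits in a row of 4 neighbouring members, stood at 8.20, 7.95 and 9.44 FPKM in the controls, at 3.72, 3.84 and 2.38 FPKM in low potassium and at 3.96, 5.12 and 4.33 FPKM under cesium. Controls lay above all other libraries, with log2 changes of -1.16 (adjusted p = 0.00045) in low potassium and -0.80 (adjusted p = 0.0048) under cesium. Of its neighbours, AT2G43880 was also lower in both stresses (log2 changes of -0.64 and -0.77), AT2G43870 had changes of 0.12 and -0.26 that did not pass the test, and AT2G43860 was listed at 0. AT1G02460 fell in low potassium from 3.37 ± 0.496 to 1.29 ± 0.184 FPKM (SD, n = 3; log2 change -0.93, adjusted p = 0.000562) and was at 2.62 ± 0.190 FPKM under cesium (adjusted p = 0.156 against control).

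The abundant AT3G16850 stood at 44.7, 42.2 and 44.1 FPKM in the controls, at 38.9, 35.7 and 39.3 FPKM in low potassium and at 27.5, 29.8 and 27.4 FPKM under cesium. The 3 groups did not overlap. Under cesium the log2 change was -0.61 against control (SE 0.072, adjusted p = 0.000404) and -0.41 against low potassium (adjusted p = 0.00227), while that in low potassium, -0.20, missed the threshold (adjusted p = 0.0547; 0.0387 without cesium 3). PGLR stood at 44.1, 44.2 and 58.8 FPKM in the controls, at 53.8, 53.4 and 48.2 FPKM in low potassium and at 34.3, 26.7 and 24 FPKM under cesium. All cesium libraries lay below all others, and control and low potassium overlapped. The log2 change under cesium was -0.77 against control (SE 0.15, adjusted p = 0.0049) and -0.86 against low potassium (adjusted p = 0.00189). PDF1B, a peptide deformylase gene whose region overlaps that of PGLR in the files, had means of 4.94, 4.85 and 6.91 FPKM in control, low potassium and cesium.

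The polygalacturonases named for cell expansion were unlike each other. PGX3, known from stomatal and cotyledon growth, stood at 2.97, 2.74 and 4.18 FPKM in the controls, at 3.32, 4.80 and 3.66 FPKM in low potassium and at 1.38, 0.895 and 2.21 FPKM under cesium. The cesium libraries lay below all others, and the log2 change was -0.80 against control (adjusted p = 0.0215) and -1.0 against low potassium (SE 0.21, adjusted p = 0.00554). The change against control lost its call without control 3 (-0.66, adjusted p = 0.0826), cesium 1 (-0.78, adjusted p = 0.0555) or cesium 2 (-0.62, adjusted p = 0.0645), and the authors' deposited table did not call it (q = 0.258). PGX1, known from hypocotyl elongation, was at 8.12 ± 1.20 FPKM in control and 6.04 ± 1.27 FPKM under cesium, and limma called none of its 3 comparisons with all libraries. Without cesium 3 it was called lower under cesium (-0.50, adjusted p = 0.0455), as it was in the authors' deposited table (log2 fold change -0.43, q = 0.0452). PGX2, also known from expanding stems and hypocotyls, reached at most 0.0799 FPKM in any library.

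Limma called a single polygalacturonase-type gene higher under cesium than in control. AT3G15720 stood at 6.12 ± 0.409 FPKM in control, 5.37 ± 1.01 FPKM in low potassium and 9.49 ± 0.845 FPKM under cesium (SD, n = 3). The log2 change was 0.56 against control (adjusted p = 0.0115) and 0.73 against low potassium (adjusted p = 0.00213). The authors' deposited table also called AT3G61490, of the same type, higher under cesium than in control (log2 fold change 0.47, q = 0.00906). By limma AT3G61490 missed the threshold against control (0.42, adjusted p = 0.0565) and was called higher than in low potassium (0.45, adjusted p = 0.0323). AT3G06770 and AT1G10640 were lower under cesium, with log2 changes of -0.79 (adjusted p = 0.0142) and -0.83 (adjusted p = 0.0191), and AT3G06770 missed the threshold without control 3 (-0.75, adjusted p = 0.0519). The authors' deposited table did not call AT1G10640 under cesium (q = 0.367). AT5G41870 was lower under cesium than in low potassium (log2 difference -0.36, adjusted p = 0.0495), a call lost without 8 of the 9 libraries in turn, with the smallest difference, -0.21 (adjusted p = 0.148), without low potassium 2.

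The active-site motifs were then counted in the polygalacturonase-type members. Plant polygalacturonases carry 4 conserved motifs, known by their residues as asparagine-threonine-aspartate, the aspartate pair after a glycine, glycine-histidine-glycine and arginine-isoleucine-lysine. In the translated RefSeq coding sequences, all 4 were found in 48 of the 64 polygalacturonase-type members. They were found in 32 of the 35 members that did not reach 1 FPKM and in 16 of the 29 tested members. The glycine-histidine-glycine motif was the one most often absent among the tested genes, present in 16 of 29, while the aspartate pair was present in 26. AT3G16850, AT3G06770 and AT5G49215 matched none of the 4, and PGX3 matched 2. Only exact matches were counted, at any position, so a variant of a motif counts as absent. Enzyme activity was not tested.

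Pectate lyases were the family with the largest share of members lower in low potassium. AT4G24780 stood at 205, 208 and 233 FPKM in the controls, at 106, 89.3 and 93.3 FPKM in low potassium and at 217, 248 and 183 FPKM under cesium. Its level in low potassium was 0.447 times that of control, and cesium and control overlapped. The log2 change was -1.15 in low potassium (SE 0.12, adjusted p = 0.000129), -0.01 under cesium (adjusted p = 0.977) and 1.15 for cesium against low potassium (adjusted p = 0.000148). AT3G27400 was also lowest in low potassium, at 12.2, 8.81 and 10.9 FPKM in the controls, 3.30, 3.31 and 2.48 FPKM in low potassium and 11.5, 11.6 and 6.23 FPKM under cesium. Low potassium lay below every other library for this gene. Its log2 change was -1.53 in low potassium (SE 0.21, adjusted p = 0.00065), -0.15 under cesium (adjusted p = 0.646) and 1.38 between the stresses (adjusted p = 0.00116).

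AT1G04680 stood at 128, 113 and 117 FPKM in the controls, at 82.9, 72.5 and 81.4 FPKM in low potassium and at 87.4, 101 and 82.6 FPKM under cesium. Controls lay above all other libraries, and the stresses overlapped. The log2 change was -0.59 in low potassium (adjusted p = 0.00157) and -0.40 under cesium (adjusted p = 0.0156), the latter lost without control 1 (-0.35, adjusted p = 0.0544). The related pair AT3G07010 and AT5G48900, with coding sequences 82.6% identical, was lower by similar amounts in both stresses. Their log2 changes were -0.64 and -0.66 in low potassium and -0.78 and -0.75 under cesium, with adjusted p of 0.0035, 0.000716, 0.00194 and 0.000557 in that order.

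PMR6 stood at 68.4, 67.0 and 71.9 FPKM in the controls, at 50.5, 46.4 and 61.5 FPKM in low potassium and at 61.5, 69.1 and 86.7 FPKM under cesium. Cesium 3 was the highest of all. The log2 change in low potassium was -0.39 (adjusted p = 0.0452) and the difference of cesium from low potassium was 0.44 (adjusted p = 0.0298). The call in low potassium was lost on leaving out any control library, low potassium 1 or 2, or cesium 2 (adjusted p 0.0611 to 0.152). The call between the stresses was lost without low potassium 1 or 2 or without cesium 2 or 3 (adjusted p 0.058 to 0.11). AT3G53190 stood at 39.4, 40.1 and 34.1 FPKM in the controls, at 33.6, 30 and 38.7 FPKM in low potassium and at 36.2, 43.9 and 45.9 FPKM under cesium, and none of its comparisons was called with all libraries. Cesium against low potassium was called for it without low potassium 3 (0.39, adjusted p = 0.0469) or cesium 1 (0.40, adjusted p = 0.0327).

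The 2 pectate lyases that were higher under cesium were of low or middling abundance. AT5G04310 stood at 4.34 ± 0.218 FPKM in control, 3.56 ± 0.114 FPKM in low potassium and 6.28 ± 1.07 FPKM under cesium (SD, n = 3), with a log2 change of 0.44 (adjusted p = 0.0215) against control and 0.67 (adjusted p = 0.00202) against low potassium. AT4G13710 stood at 7.35 ± 0.335, 6.68 ± 0.435 and 9.25 ± 0.555 FPKM in the same order, with log2 changes of 0.29 (adjusted p = 0.032) and 0.42 (adjusted p = 0.0049). Both were called against low potassium in each alternative, and both calls against control were lost in a fit on the 6 libraries of those groups (adjusted p = 0.0507 and 0.057). The call of AT5G04310 against control was also lost without control 1 or 3 (adjusted p = 0.06 and 0.0686) or cesium 2 (adjusted p = 0.0636). That of AT4G13710 was lost without any control library or without cesium 1 or 2 (adjusted p 0.0626 to 0.117).

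**Figure D4:**
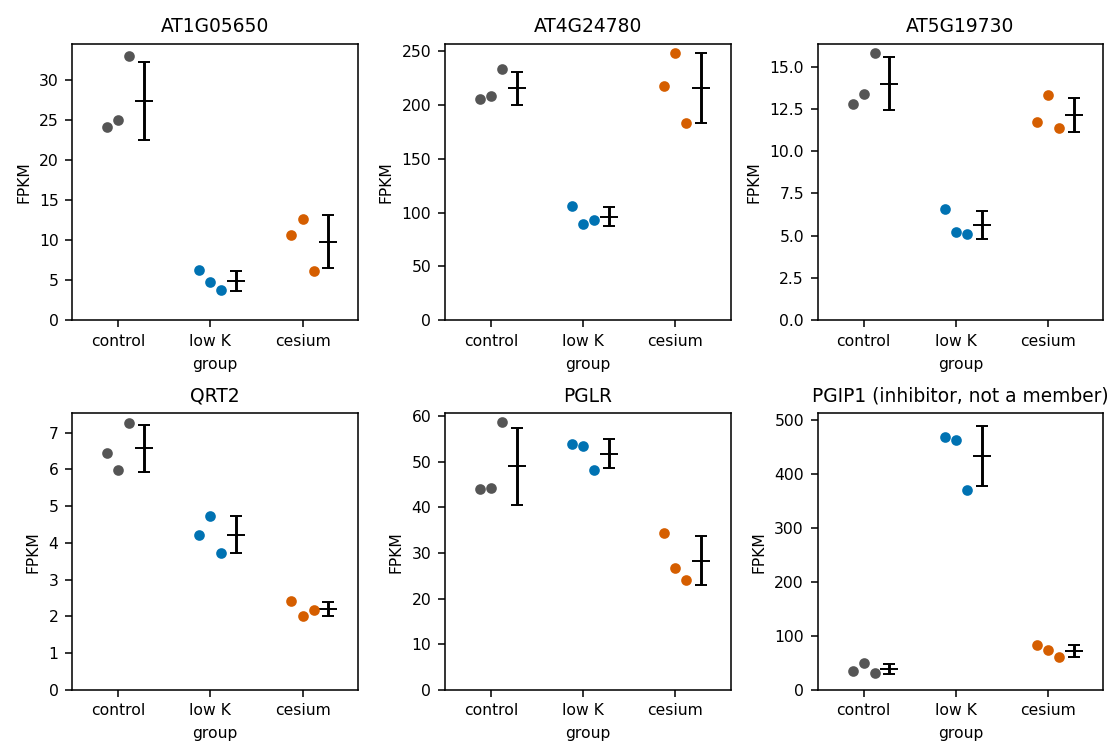
FPKM of 5 pectin lyase-like genes and of the inhibitor gene PGIP1 by group; points are libraries, and the bar is the mean with its SD (n = 3). AT4G24780 and AT5G19730 are lowest in low potassium, QRT2 and PGLR are lowest under cesium, and PGIP1 reaches 369 to 467 FPKM in low potassium.

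Among the pectin methylesterases, AT5G19730 and QRT1 were low in different groups. AT5G19730 stood at 12.8, 13.4 and 15.8 FPKM in the controls, at 6.59, 5.23 and 5.08 FPKM in low potassium and at 11.7, 13.3 and 11.4 FPKM under cesium. Low potassium lay below all other libraries, with a log2 change of -1.18 (SE 0.12, adjusted p = 9.54e-05), against -0.19 under cesium (adjusted p = 0.269), and the stresses differed by 0.99 (adjusted p = 0.000268). QRT1, known for the separation of pollen grains after meiosis, stood at 4.69, 5.08 and 6.30 FPKM in the controls, at 4.65, 4.63 and 5.04 FPKM in low potassium and at 1.94, 1.56 and 2.75 FPKM under cesium. Here cesium lay below all other libraries, with log2 changes of -1.05 against control (SE 0.15, adjusted p = 0.00117) and -0.92 against low potassium (adjusted p = 0.00165). The authors' deposited table did not call QRT1 under cesium (q = 0.0682). AT5G55600, whose region overlaps that of QRT1, had means of 16.6, 23.5 and 15.8 FPKM. AT2G19150 was lower under cesium (log2 change -0.62, adjusted p = 0.00887). PME5, known from wall softening in the shoot apex, stood at 12.3 ± 1.94, 10.5 ± 1.96 and 11.9 ± 1.45 FPKM and limma called it in no comparison.

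QRT1 shares its name with a pair of other members that also act in pollen tetrad separation, the polygalacturonase gene QRT2 and QRT3. QRT2, which is also known from floral organ abscission, stood at 6.46, 5.99 and 7.26 FPKM in the controls, at 4.22, 4.73 and 3.73 FPKM in low potassium and at 2.41, 2.01 and 2.18 FPKM under cesium. The groups did not overlap, in the order control, low potassium, cesium. The log2 change was -1.24 under cesium (SE 0.11, adjusted p = 0.000103), -0.53 in low potassium (adjusted p = 0.00534) and -0.71 between the stresses (adjusted p = 0.00139). The authors' deposited table called QRT2 under cesium (q = 0.000491) but not in low potassium (q = 0.101). The lower bound of its FPKM was above 0 in 5 libraries. MAPKKK6, whose region overlaps that of QRT2, had means of 4.23, 4.45 and 4.89 FPKM in control, low potassium and cesium. QRT3 stood at 1.62 ± 0.403, 1.31 ± 0.358 and 1.72 ± 1.09 FPKM and was called in no comparison. Its neighbour AT4G20040 was at 2.69 ± 0.116 FPKM in control, 1.06 ± 0.350 FPKM in low potassium and 2.65 ± 0.745 FPKM under cesium, with a log2 change of -0.86 in low potassium (adjusted p = 0.00517) and 0.82 between the stresses (adjusted p = 0.00675). ADPG1, a polygalacturonase of fruit dehiscence and floral abscission, was above 0 in 1 library, at 0.062 FPKM.

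The root cap gene varied more between libraries of a group than between groups. RCPG, the root cap polygalacturonase that acts in the shedding of root cap cells, stood at 1.95, 3.84 and 1.01 FPKM in the controls, at 3.62, 7.25 and 0.168 FPKM in low potassium and at 1.06, 0.732 and 0.104 FPKM under cesium. Its lowest values were in low potassium 3 and cesium 3, and limma called none of its 3 comparisons. The authors' deposited table called RCPG lower under cesium (log2 fold change -1.84, q = 0.000491) and higher in low potassium (0.70, q = 0.0214). Without low potassium 3, the log2 difference of cesium from low potassium was -1.97 (adjusted p = 0.00909), against -1.17 (adjusted p = 0.173) with it. NAC015 and NAC070, root cap transcription factors also called BEARSKIN and known to act upstream of RCPG, had their lowest values in the same libraries. NAC015 was at 0.779 FPKM in low potassium 3 and 0.982 FPKM in cesium 3, within a range of 0.779 to 5.43 FPKM over all 9. NAC070 was at 1.06 and 2.25 FPKM there, within a range of 1.06 to 6.15 FPKM. The other root cap regulators, SMB and FEZ, were lowest in low potassium 3, at 5.13 and 0.828 FPKM, but stood at 6.87 FPKM and at 3.82 FPKM in cesium 3, the latter the highest FEZ value of all libraries. The summed level of the 4 root cap markers was 13.1 to 21.2 FPKM in control, 7.80 to 17.8 FPKM in low potassium and 13.9 to 19.9 FPKM under cesium, with 1 of 4 higher under cesium and 1 of 4 lower in low potassium.

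Other members were also low in the same pair of libraries, among them 3 that are shown beside RCPG. The pectin methylesterase AT1G05310 was at 0.342 FPKM in low potassium 3 and at 0 in cesium 3, against 1.66 and 2.75 FPKM and 3.16 and 3.61 FPKM in the others of those groups. AT1G23460 and AT1G70500, polygalacturonase-type genes with coding sequences 80.0% identical, were at 5.44 and 0.980 FPKM in low potassium 3 and at 4.17 and 0.951 FPKM in cesium 3. Both genes were lower there than in the 7 other libraries. Limma called none of these 3 genes in any comparison, while the authors' deposited table called AT1G05310 higher under cesium (log2 fold change 0.70, q = 0.0488). These 3 were singled out after their values were seen. QRT3, AT3G59850 and AT3G09540 also had their lowest values in that pair of libraries. They stood at 0.909, 7.55 and 8.05 FPKM in low potassium 3 and at 0.731, 8.34 and 7.43 FPKM in cesium 3. The root tissue marker EXPA7 was lowest there as well, at 8.64 and 17.4 FPKM. How many of all genes share this pattern was not counted.

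**Figure D5:**
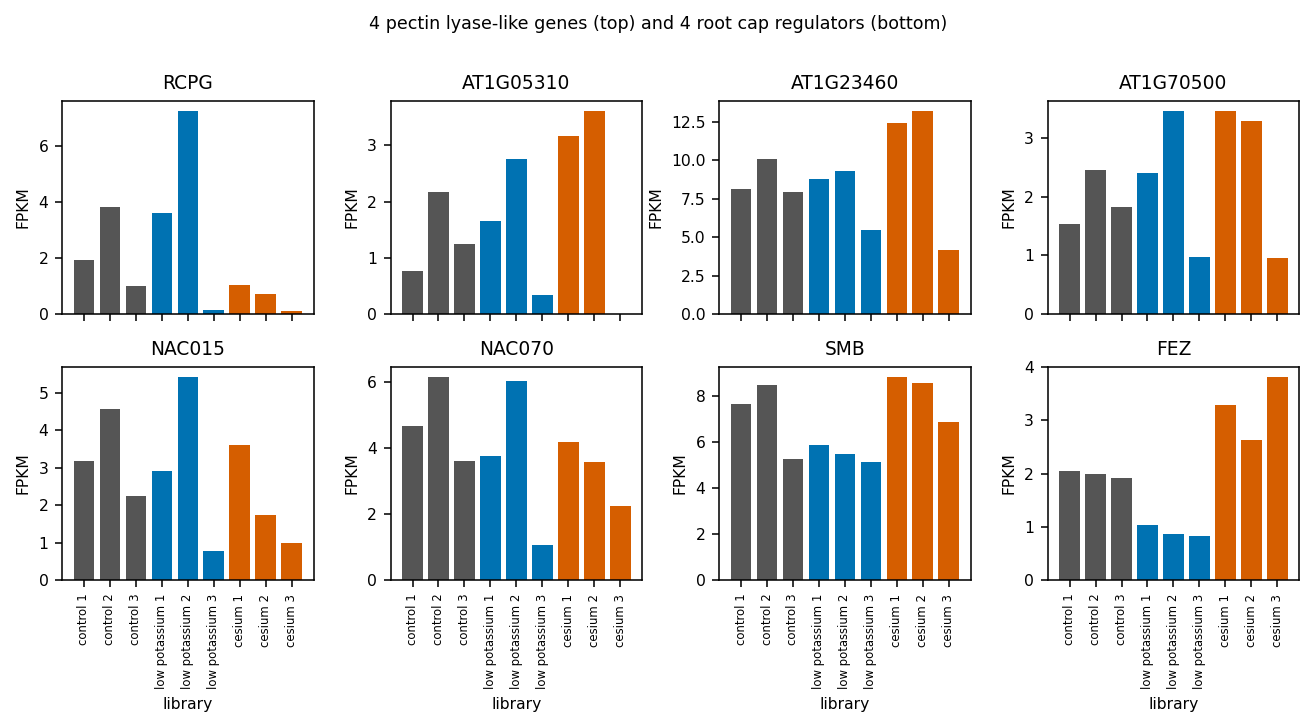
FPKM in each library of RCPG and 3 of the members that were low in the same libraries (top) and of 4 root cap regulators (bottom). Bars start at 0 and colours mark the groups. RCPG, NAC015 and NAC070 are low in low potassium 3 and cesium 3, while FEZ is lowest in the 3 low potassium libraries.

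A pair of members under the filter that differed between groups was picked out after the values were seen, from a limma fit without the filter. AT4G32380 stood at 0.0383, 0 and 0.0782 FPKM in the controls, at 1.16, 0.828 and 1.12 FPKM in low potassium and at 0.115, 0.137 and 0 FPKM under cesium. In that fit it was the only member higher in low potassium than in control (log2 change 0.97, adjusted p = 0.000173), and it was lower under cesium than in low potassium (log2 difference -0.91, adjusted p = 0.00024). The authors' deposited table did not call it in low potassium (q = 0.372), and the lower bound of its FPKM was above 0 in none of the 9 libraries. AT4G01890, whose coding sequence is 75.6% identical to that of AT1G02460, stood at 0.727, 0.789 and 0.741 FPKM in the controls, at 0.211, 0.320 and 0.102 FPKM in low potassium and at 0.276, 0.0704 and 0.175 FPKM under cesium. Its log2 changes were -0.54 (adjusted p = 0.00252) and -0.58 (adjusted p = 0.00279). The authors' deposited table also called AT4G01890 lower in both (q = 0.00932 in each), while the lower bound of its FPKM was above 0 in no library. The fit without the filter also called AT3G24130 lower in low potassium (-0.18, adjusted p = 0.0493), a gene of at most 0.201 FPKM in any library.

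Members with another member close by were mostly below 1 FPKM. With a distance of at most 10 kb between neighbours, and no condition on their sequences, 30 members fell into 11 groups. Of these 30, 8 were tested, against 41 of the 74 members outside such groups. The trio AT1G43080, AT1G43090 and AT1G43100, with coding sequences 99.2% to 99.6% identical, was listed at 0 in every library. So was the trio AT2G15450, AT2G15460 and AT2G15470, which was 99.1% to 99.5% identical. In such copies reads could be split between genes, so their values are uncertain. No member with a relative of at least 95% identity exceeded 0.0553 FPKM in any library. Of 6 pollen markers, 4 were at 0 in all libraries, among them the member PPME1, a pectin methylesterase of pollen tubes. PLIM2c reached at most 0.109 FPKM, while PLIM2b stood at 51.1 to 77.0 FPKM over all libraries. PLIM2b was the 1 pollen marker tested, and it was called higher in low potassium than in control.

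Genes around these enzymes in the pectin pathway were followed by lists. In homogalacturonan synthesis, 7 of 18 tested genes were lower under cesium and 6 in low potassium, with none higher, where 12.7% and 18.8% of all genes tested were lower. These percentages are also the background for the counts of lower genes in the lists that follow. Among the synthesis genes, CGR3, a pectin methyltransferase, was lower under cesium (log2 change -0.50) and in low potassium (-0.44), as was GAUT14, a galacturonosyltransferase (-0.50 under cesium). Of 6 UDP-glucuronate epimerases, which make the galacturonate donor, 2 were lower and 1 was higher under cesium and 3 were lower in low potassium. GAE6 stood at 255 ± 13.3 FPKM in control, 145 ± 8.90 FPKM in low potassium and 210 ± 13.7 FPKM under cesium (SD, n = 3), with a log2 change of -0.82 in low potassium (adjusted p = 0.000145). In rhamnogalacturonan synthesis, 3 of 7 were lower under cesium and 4 in low potassium, led by AT5G15740 (-0.46 and -0.75) and by the galactan synthase GALS2 (-0.51 and -0.68).

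Pectin methylesterases as a wider list, with 3 members among its 30 genes, had 11 of 22 tested genes lower under cesium and none higher, and 11 lower and 3 higher in low potassium, against 12.7% of all genes lower and 10.8% higher under cesium and 18.8% in each direction in low potassium. PME3 was at 267 ± 6.15 FPKM in control and 108 ± 15.6 FPKM in low potassium (log2 change -1.31, adjusted p = 7.11e-05). AT3G43270 rose from 16.6 ± 1.33 to 33.9 ± 3.58 FPKM (0.98, adjusted p = 9.13e-05). Under cesium ATPMEPCRD and PMEPCRF were lower, with log2 changes of -1.29 and -0.99. Of the 26 listed pectate lyases, 19 are members, and AT1G67750, which is not, was lower, with log2 changes of -0.98 under cesium and -0.89 in low potassium. Of 5 tested methylesterase inhibitors, 3 were lower under cesium and 4 in low potassium, with AT4G25250 at -1.21 and -1.42. Of 11 tested pectin acetylesterases, which remove acetyl groups, 2 were higher and 2 lower under cesium, and 2 were higher and 7 lower in low potassium. AT1G57590 was lower under cesium (log2 change -0.93, adjusted p = 0.000107).

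The polygalacturonase inhibitor PGIP1, a leucine-rich repeat protein that blocks fungal polygalacturonases and is known to rise on wounding and infection, had the largest change among all listed genes. It stood at 35.0, 48.9 and 31.4 FPKM in the controls, at 467, 463 and 369 FPKM in low potassium and at 82.5, 73.2 and 61.0 FPKM under cesium. The 3 groups did not overlap, and its file region also holds another gene. The log2 change was 3.48 in low potassium (SE 0.17, adjusted p = 3.19e-06), 0.91 under cesium (adjusted p = 0.00512) and -2.57 between the stresses (adjusted p = 1.39e-05). Its neighbour PGIP2 stood at 1.47, 0.972 and 1.18 FPKM in the controls, at 1.13, 0.870 and 0.570 FPKM in low potassium and at 3.11, 5.98 and 1.99 FPKM under cesium. It was higher under cesium than in control by 1.00 (adjusted p = 0.0251) and than in low potassium by 1.26 (adjusted p = 0.0066).

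Receptors that bind pectin or watch over the wall formed a short list. Of 4 tested, THE1, a receptor kinase of wall integrity, was lower under cesium (log2 change -0.64, adjusted p = 0.00336) and in low potassium (-0.62, adjusted p = 0.00252), and the wall-associated kinase WAK4 was lower in low potassium (-0.99, adjusted p = 0.000753). Of 3 tested genes of cell separation signalling, HAE, the receptor kinase of floral organ abscission, was higher in low potassium (0.66, adjusted p = 0.0158) and none was called under cesium. Lateral root primordium markers, of which 4 of 5 were tested, summed to 14.5 to 15.3 FPKM in control, 13.1 to 15.3 FPKM in low potassium and 14.4 to 14.5 FPKM under cesium, with 1 higher and 2 lower in low potassium and 1 lower under cesium. Root tissue markers summed to 472 to 557, 249 to 304 and 260 to 333 FPKM in the same order, with 2 higher and 3 lower of 10 under cesium and 4 lower in low potassium. These sums follow CASP1, the largest part, at 315 to 386, 151 to 182 and 137 to 188 FPKM. EXPA7, RHD2 and GL2 also lay below all controls in all stressed libraries, GL2 at 13.2 to 14.7, 7.55 to 8.32 and 8.60 to 10.3 FPKM. MYB36 lay below all controls in low potassium alone. WOX5, PLT1 and PLT2 lay above all controls in all cesium libraries. SHR and SCR overlapped the controls in both stresses, SCR at 21.3 to 23.3, 20.4 to 23.0 and 19.8 to 34.1 FPKM. Shoot markers outside photosynthesis summed to 10.1 to 12.3, 10.6 to 13 and 12.9 to 15.4 FPKM, and the 2 at 0 throughout were FMA and MUTE. The part of these cell type markers in the results was not tested.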

How the data were processed

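The authors deposited FPKM values with lower and upper bounds per gene and library, and tables of their own comparisons of each stress with control, which hold group values, a log2 fold change, p-values and q-values. Per the submitters' processing notes, the build was TAIR10 and the tools were Cufflinks 2.2.1, STAR 2.5.0c and Bowtie2 2.3.4.1; the role of each tool and the scaling are not given in the sources used here. Libraries were strand-specific, per the labels' protocols. The level of the bounds is not given either.

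Groups came from the labels. The 3 comparisons were fitted in limma 3.58.1 (R 4.3.3) on log2(FPKM + 1) with a mean-variance trend, on all 9 libraries, for the 19536 genes whose mean reached 1 FPKM, and adjusted over all of them by Benjamini-Hochberg. A fold change on this scale understates the change of low genes. The script was tested on simulated data. 5 genes with a failed status in 1 or more libraries were left out. Of the members, 87 have the same region in the files and in TAIR10.1.

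Values per library are given for the 6 most abundant members and for members called with a log2 change of at least 1 in size. Named are also the 8 highest and 8 lowest called members of each comparison, members with a published name and, per pathway list, leading called genes by adjusted p. The members and lists were chosen with earlier results of these data known. Enzyme families came from InterPro entries in RefSeq notes, and identities from aligned coding sequences (Biopython 1.88) in place of protein names and proteins. Replicate numbers are shared by the groups but were not used to pair the libraries in the main fit. Alternatives were other pseudocounts, filters, scalings and fits, and leaving out each library.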

Additional observations from a re-analysis of the deposited data

How the results depend on the processing

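Of the 28 named members, PGX2 and ADPG1 were not tested, and each comparison of the others was recomputed under up to 18 alternatives. Of 78 comparisons, 41 were called, 32 of these kept call and direction under every alternative, 9 lost the call under 1 or more, and none changed direction. Losses on leaving out a library stand in the report. PMR6 also lost its call in low potassium with no filter, quantile normalization or no trend (adjusted p = 0.0669, 0.0703 and 0.0542) and between the stresses in the fit on 6 libraries (0.0673). AT5G41870 also lost its call between the stresses with no filter, quantile normalization, the fit on 6 libraries or no trend (0.0744, 0.0634, 0.0962 and 0.0549). Another 6 comparisons passed only under alternatives: AT1G10640 under 6, AT3G16850 under 4 and AT3G06770 under 3 (low potassium), AT3G53190 and RCPG under 2 each (between the stresses) and PGX1 under 1 (cesium). Members called under cesium were 13 (11 lower) with a mean of at least 5 FPKM required, which leaves fewer genes, and 15 to 23 with 1 library left out; members higher under cesium were 1 in the fit on 6 libraries and 1 to 4 with 1 library left out; members lower were 14 to 19. All genes called under cesium were 2905 to 4788 with 1 library left out, and genes of the pathway lists 26 to 44. Members higher in low potassium were 1 without the filter and 1 by the authors' deposited q-values, and members lower under cesium than in low potassium were 3 with a mean of at least 5 FPKM. Without its most abundant member, each family's summed FPKM in control, low potassium and cesium was 300, 231 and 224 (polygalacturonase-type), 382, 265 and 322 (pectate lyases) and 23.1, 13.8 and 17.8 (pectin methylesterases).

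Changes that were not called changed sign as follows, with the range over leaving out 1 library each. Under cesium these were AT4G24780 (-0.11 to 0.11, and 0.02 with quantile normalization), AT3G27400 (-0.28 to 0.12), PMR6 (-0.08 to 0.16), AT4G20040 (-0.17 to 0.13), QRT3 (-0.31 to 0.27) and PME5 (-0.13 to 0.07). In low potassium these were RCPG (-0.40 to 1.01, and -0.10 with a pseudocount of 0.1) and PGX1 (-0.17 to 0.03). Between the stresses these were AT1G05660 (-0.25 to 0.08, and 0.00 with quantile normalization) and QRT3 (-0.12 to 0.46). The cause was not tested. Same-numbered libraries of different groups correlated at -0.12 to 0.282 in their deviations from the group means, and differently numbered ones at -0.216 to 0.203. The highest value was that of low potassium 3 with cesium 3. Whether the numbers pair the libraries was not tested further, and the main fit treats them as unpaired. With the replicate block, 19 members were called under cesium, 20 in low potassium and 18 between the stresses, and RCPG was called lower under cesium than in low potassium (-1.17, adjusted p = 0.0442). Among the named members the block ended the calls of AT4G13710 under cesium (adjusted p = 0.0638) and AT5G41870 between the stresses (adjusted p = 0.0634). The number of reads is unknown, so no limit of detection can be given for members listed at 0.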
